A study of Mus musculus with 9 samples.

Results

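Acp5 and Ctsk, the genes of tartrate-resistant acid phosphatase (TRAP) and cathepsin K, were followed through lactation and weaning in osteocyte-enriched mouse bone. Members were the probe sets, the array's groups of short probes against a transcript, that are annotated to exactly 1 gene, that gene being Acp5 or Ctsk. The rule found 2 of 45101 probe sets, 1431609_a_at for Acp5 and 1450652_at for Ctsk, which are 2 of the 18194 genes named on the array. Each gene therefore rests on 1 probe set, and there was no second probe set to set beside it.

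The series asked which genes take part in the remodelling of bone around osteocytes. RNA came from tibial shafts of wild type CD1 mice of 16 to 18 weeks, measured on 9 arrays in 3 groups of 3. The groups were virgin mice of matched age, dams at lactation day 12, and dams whose pups were removed at lactation day 12 and whose bone was taken 7 days later, here called post-lactation. Litters held 8 to 13 pups, and the labels name no transgene and no drug in any group. Marrow was removed and the shafts went through several digestions with collagenase, trypsin and EDTA, which strip surface cells, before the bone was pulverised. Groups were taken from the array titles. For the post-lactation arrays this goes against the source field, which gives virgin, and 1 sentence of the extraction text names femurs. No label says whether each array holds RNA of a separate mouse, so the p-values reflect how far these samples scatter, which may be technical, and 3 arrays a group limit the precision.

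Osteocytes are the cells embedded in bone matrix, each in a small cavity, the lacuna. Osteocytic osteolysis is the removal of mineral and matrix from the lacunar wall by the osteocyte itself, described in lactation, when maternal bone supplies calcium for milk. Its markers are borrowed from the osteoclast, the multinucleated cell that resorbs bone surfaces. TRAP is an iron-containing phosphatase of the acid compartment, long used as the histochemical stain for osteoclasts. Cathepsin K is a lysosomal cysteine protease that cuts type I collagen, the main protein of bone matrix, at acid pH. In the osteoclast the acid is delivered by the vacuolar proton pump (V-ATPase).

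The values are log2 expression summaries made by RMA (robust multi-array average), so a difference of 1 is a 2-fold difference. Exactly equal values showed that the 9 arrays fell into 3 sets, with the groups balanced over them. Virgin 1 shared its set with lactation 3 and post-lactation 1 (set 1), virgin 2 with lactation 2 and post-lactation 3 (set 2), and virgin 3 with lactation 1 and post-lactation 2 (set 3). The median of an array was 4.32 to 4.34 for the first set, 4.80 to 4.82 for the second and 4.57 for the third, so the sets differed in scale. Each result is given from limma both without the sets and with them as a block term, with Benjamini-Hochberg adjustment over all 18194 genes and calls at an adjusted p under 0.05. Virgin 1 stood apart: Sost, the gene of the osteocyte's Wnt inhibitor sclerostin, was at 8.14 there, against 11.6 to 13.6 on the other 8 arrays.

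The genes lie on different chromosomes, and the bases just upstream of their starts are shown here since both transcripts had their highest values in lactation. Acp5 has 3 annotated starts on the minus strand of chromosome 9, and Ctsk has 1 on the plus strand of chromosome 3 (RefSeq, GRCm38.p6). The windows shown are the 250 bases before the third, most downstream Acp5 start (chr9:22130599-22130848, minus strand) and before the Ctsk start (chr3:95498960-95499209, plus strand). They are written 5′ to 3′ on the gene's strand. Capitals mark GGAAA, the core bound by NFAT factors, and the E-box CANNTG. They also mark TCATGTG, an M-box form that MITF and TFE factors bind. Where a motif lies on the opposite strand, its reverse complement is in capitals.
Acp5: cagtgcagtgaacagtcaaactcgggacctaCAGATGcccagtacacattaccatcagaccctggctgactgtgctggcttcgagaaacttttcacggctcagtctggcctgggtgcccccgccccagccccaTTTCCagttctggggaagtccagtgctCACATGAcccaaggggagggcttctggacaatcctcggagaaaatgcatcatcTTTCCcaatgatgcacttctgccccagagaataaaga
Ctsk: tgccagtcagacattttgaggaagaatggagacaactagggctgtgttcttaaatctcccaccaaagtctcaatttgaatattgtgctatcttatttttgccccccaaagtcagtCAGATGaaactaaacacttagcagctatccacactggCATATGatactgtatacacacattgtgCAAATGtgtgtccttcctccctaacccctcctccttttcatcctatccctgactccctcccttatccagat
The Acp5 window held 2 GGAAA cores, at -117 and -37 relative to the start, and 2 E-boxes, at -219 and -90. The E-box nearer the start lies inside the window's 1 TCATGTG match, which reads on the opposite strand, so those matches overlap. The Ctsk window held 3 E-boxes, at -135, -98 and -71, and neither GGAAA nor TCATGTG. Of 32851 promoter windows of this length, read on both strands, 55.6% held GGAAA, 66.2% held CANNTG and 3.25% held TCATGTG. The windows at the first and second Acp5 starts each held 1 GGAAA, held 2 and 1 E-boxes, and had no TCATGTG. The AP-1 site TGANTCA, held by 6.75% of windows, and TATAAA, held by 12.4%, were in none of the 4 windows. A match is a description of the letters, not a bound site.

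The first comparison placed lactation against virgin mice. Acp5 and Ctsk were among the genes with the largest higher means in lactation, each more than 3-fold above virgin bone, and neither passed the adjusted threshold. Acp5 read 11.96, 13.26 and 12.57 in lactation 1 to 3, against 10.42, 11.46 and 10.68 in virgin 1 to 3. The groups did not overlap, with 0.50 between the lowest lactation array and the highest virgin array. The mean was 12.59 ± 0.65 in lactation and 10.85 ± 0.54 in virgin bone (SD, n = 3 each). Lactation minus virgin was 1.74 on the log2 scale, a 3.35-fold difference, with an SE of 0.48 and a 95% interval of 0.69 to 2.79, and limma gave an adjusted p of 1.

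Ctsk read 12.11, 12.83 and 11.94 in lactation 1 to 3, against 9.83, 10.70 and 10.85 in virgin 1 to 3. All lactation arrays lay above all virgin arrays, by at least 1.09. The mean was 12.29 ± 0.47 in lactation and 10.46 ± 0.55 in virgin bone (SD, n = 3 each). Lactation minus virgin was 1.83 on the log2 scale, 3.57-fold, with an SE of 0.37 and a 95% interval of 1.01 to 2.66, and limma gave an adjusted p of 0.861. Both genes were therefore higher in lactation by more than the spread between arrays, but not by enough to pass adjustment over all genes.

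This comparison called 0 of 18194 genes (0%) without the sets, where 328 had an unadjusted p under 0.05, and 4 genes (0.022%) with the set as a block. With the block the interval narrowed to 1.21 to 2.28 for Acp5 (limma adjusted p = 0.0895) and to 1.32 to 2.35 for Ctsk (limma adjusted p = 0.0738). Every lactation array lay above every virgin array for both members and for 374 genes in all (2.06%). Within sets 1, 2 and 3 the difference was 2.15, 1.81 and 1.28 for Acp5. It was 2.11, 2.13 and 1.27 for Ctsk in the same sets. By size of the mean difference, Ctsk ranked 2 and Acp5 ranked 4 of 18194 genes, and Slc9b2, a sodium/proton antiporter gene, ranked between them at 3. A difference over 1 in each of the 3 sets, a rule chosen after the values were seen, held for 23 genes (0.126%), both members among them. Without virgin 1, which stood apart, the difference was 1.53 for Acp5 and 1.52 for Ctsk in the fit without the sets. With the set as a block it was 1.65 and 1.73.

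**Figure D1:**
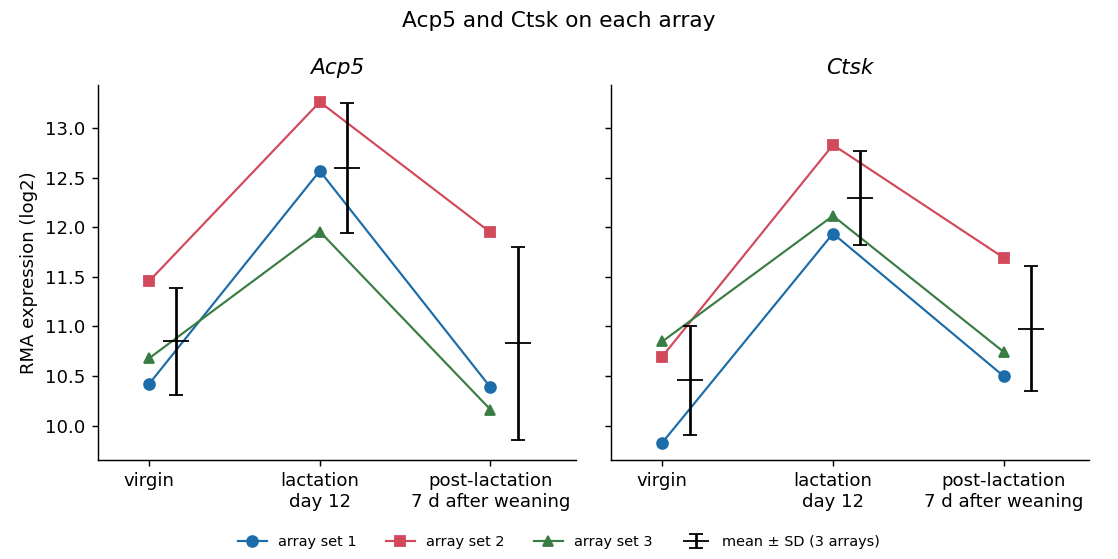
Log2 RMA expression (vertical axis) of Acp5 and Ctsk in virgin, lactation day 12 and post-lactation bone. Points are single arrays, lines join the 3 arrays of a set, and bars are the group mean ± SD of 3 arrays. In each set lactation is the highest array for both genes, with Acp5 at 11.96 to 13.26 and Ctsk at 11.94 to 12.83.

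The second comparison placed post-lactation against lactation. At 7 days after weaning both transcripts were lower than in lactation, Acp5 by 3.39-fold and Ctsk by 2.49-fold. Acp5 read 10.39, 10.16 and 11.95 in post-lactation 1 to 3, against 11.96, 13.26 and 12.57 in lactation 1 to 3. The groups did not overlap, but post-lactation 3 lay 0.0087 below lactation 1. The mean was 10.83 ± 0.97 in post-lactation and 12.59 ± 0.65 in lactation (SD, n = 3 each). Post-lactation minus lactation was -1.76 (SE 0.48, 95% interval -2.81 to -0.71), with a limma adjusted p of 0.248.

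Ctsk read 10.50, 10.74 and 11.69 in post-lactation 1 to 3, against 12.11, 12.83 and 11.94 in lactation 1 to 3. Post-lactation 3 was again the highest of its group and lay 0.24 below lactation 3. The mean was 10.98 ± 0.63 in post-lactation and 12.29 ± 0.47 in lactation (SD, n = 3 each). Post-lactation minus lactation was -1.32 (SE 0.37, 95% interval -2.14 to -0.49), with a limma adjusted p of 0.298. The comparison shares its lactation arrays with the one against virgin bone, so the opposite signs are not independent of each other.

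Without the sets, limma called 129 genes (0.709%), 126 of them lower (0.693%), and neither member. With the set as a block it called 642 genes (3.53%), 544 lower (2.99%), and both members were among the lower ones. The blocked adjusted p was 0.0119 for Acp5, with a 95% interval of -2.30 to -1.23, and 0.0297 for Ctsk, with an interval of -1.83 to -0.80. Within sets 1, 2 and 3 Acp5 differed by -2.18, -1.31 and -1.79, and Ctsk by -1.44, -1.14 and -1.37. Post-lactation 3 and lactation 2, each the highest of its group for Acp5, belong to the same set. Every post-lactation array lay below every lactation array for both members and for 796 genes in all (4.38%). Among all genes by size of the lower mean, Acp5 ranked 93 and Ctsk 157.

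The blocked calls did not hold in every fit that left out 1 array or 1 set. Over 12 such fits the difference ran from -2.00 to -1.55 for Acp5 and from -1.48 to -1.14 for Ctsk. Those fits have fewer residual degrees of freedom, and over all genes they called from 0 to 927. Acp5 was called in 4 of them, those without virgin 1, 2 or 3 or post-lactation 3. Ctsk was called in 3, those without virgin 1, 2 or 3. Leaving out a virgin array removed no array of the compared groups, and the differences stayed at -1.76 for Acp5 and -1.32 for Ctsk. Of the blocked fits that lost a lactation or post-lactation array, none called Ctsk, and only that without post-lactation 3 called Acp5. Without the sets, leaving out post-lactation 3 gave Acp5 a difference of -2.32 and an adjusted p of 0.0301 in limma. That fit left set 2 with no post-lactation array, and its median difference over all genes was -0.13. With the set as a block the Acp5 difference was -2.00.

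The third comparison placed post-lactation against virgin mice. For Acp5 the post-lactation values of 10.39, 10.16 and 11.95 overlapped the virgin values of 10.42, 11.46 and 10.68, and the means of 10.83 and 10.85 differed by -0.02. The 95% interval ran from -1.07 to 1.03, or from -0.56 to 0.52 with the set as a block, so a difference of about 2-fold either way is inside the wider interval. The set differences of -0.03, 0.49 and -0.52 took both signs. limma's adjusted p was 1 without the sets and 0.989 with them.

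Ctsk values also overlapped, and its mean was 0.52 higher in post-lactation (10.98) than in virgin bone (10.46), 1.43-fold. The 95% interval was -0.30 to 1.34 without the sets and 0.003 to 1.04 with them. The adjusted p from limma was 1 and, with the block, 0.611. The differences of 0.67, 1.00 and -0.11 in sets 1, 2 and 3 did not share a sign. Without virgin 1 the difference was 0.21 for Ctsk and -0.24 for Acp5 in the fit without the sets, which left set 1 with no virgin array. It was 0.41 for Ctsk and -0.12 for Acp5 with the set as a block. Neither member was among the 32 genes (0.176%) called without the sets or the 82 (0.451%) called with them.

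**Figure D2:**
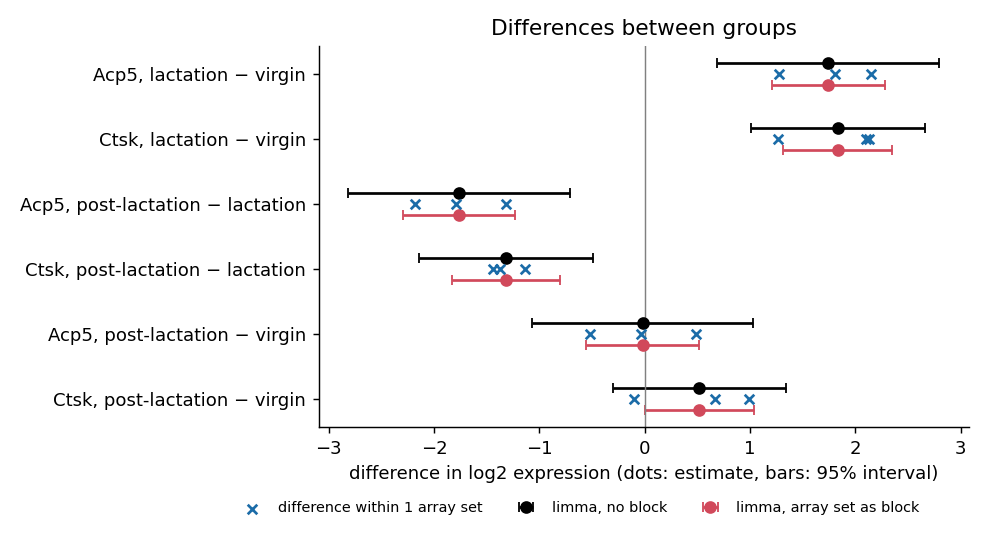
Differences in log2 expression (horizontal axis) for Acp5 and Ctsk in 3 pairs of groups. Dots with bars are limma estimates with 95% intervals, black without and red with the set as a block, and crosses are the differences within 1 array set. Crosses lie between 1.27 and 2.15 for lactation minus virgin, between -2.18 and -1.14 for post-lactation minus lactation, and on both sides of 0 for post-lactation minus virgin.

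Lactation was also set against the mean of the other groups, a contrast built from the same arrays. Acp5 was 1.75 higher (3.37-fold), with a limma adjusted p of 0.172 without the sets and 0.00986 with them. Ctsk was 1.57 higher (2.98-fold), with a limma adjusted p of 0.0849 without the sets and 0.0122 with them. The unblocked fit called 86 genes (0.473%), 85 higher (0.467%), and the blocked fit 434 (2.39%), of which 392 were higher (2.15%), both members among these. Without virgin 1 the unblocked difference was 1.64 for Acp5 and 1.42 for Ctsk, and the blocked difference was 1.70 and 1.52. All 3 lactation arrays lay above the other 6 for both members and for 230 genes in all (1.26%). In 12 blocked fits that left out 1 array or set, each member was called in 5, those without any 1 virgin array or without post-lactation 2 or 3.

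The order of the group means was virgin, post-lactation, lactation for Ctsk. For Acp5 it was post-lactation, virgin, lactation, with the lower neighbours not differing beyond their spread for either gene. Values relative to each array's median remove the array-wide shift only, and Acp5 stayed highest in set 2 in every group. Acp5 stood 6.28 ± 0.31 above the median in virgin, 8.02 ± 0.56 in lactation and 6.26 ± 0.80 in post-lactation bone (SD, n = 3 each). Ctsk stood 5.89 ± 0.38, 7.72 ± 0.25 and 6.41 ± 0.42 above it in the same groups.

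Whether the genes moved by different amounts was tested on Acp5 minus Ctsk within each array, with an exact two-sided permutation test that can give no p below 0.1 here. Lactation minus virgin was -0.09 (exact p = 0.8), with means of 0.30 ± 0.41 in lactation and 0.39 ± 0.49 in virgin bone (SD, n = 3 each). In sets 1, 2 and 3 it was 0.04, -0.33 and 0.01. Post-lactation minus lactation was -0.45 (exact p = 0.3), with means of -0.15 ± 0.42 in post-lactation and 0.30 ± 0.41 in lactation. It was -0.74, -0.18 and -0.42 in sets 1, 2 and 3, the same sign in each, which this test could not separate from the spread between arrays. Post-lactation minus virgin was -0.54 (exact p = 0.3), with means of -0.15 ± 0.42 in post-lactation and 0.39 ± 0.49 in virgin bone, and -0.70, -0.50 and -0.41 in the sets. Permuting within the sets gave an exact p of 1 for lactation against virgin and 0.25 for the other pairs, and 0.25 is the smallest that test can give.

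The rest of the resorption machinery, listed by function, comprised 26 measured genes. Their means were higher in lactation than in virgin bone for 22 and lower for 4, with a median difference of 0.44 against 0.007 over all genes, and none was called. After weaning 21 were lower and 5 higher, with a median of -0.31 against 0 over all genes. Car2 was called lower without the sets, where 0.693% of all genes were, and 5 of the 26 were called lower with them, where 2.99% of all genes were. Those were Car2, Slc9b2, Atp6v0d2, Atp6v1g1 and Mmp13.

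Slc9b2, whose product is known from mouse osteoclasts, had differences of a size like the members'. It read 8.19, 9.24 and 8.47 in lactation 1 to 3, against 6.36, 7.11 and 7.02 in virgin 1 to 3. In post-lactation 1 to 3 it read 6.49, 6.50 and 8.06, with the third array high as for Acp5. Lactation minus virgin was 1.80 and was not called (limma adjusted p = 0.108 with the sets). Post-lactation minus lactation was -1.62, with a limma adjusted p of 0.227 without and 0.0353 with the sets.

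Atp6v0d2, the d2 subunit of the V-ATPase's membrane sector, used by osteoclasts, averaged 9.15 ± 0.22 in lactation and 7.51 ± 0.40 in virgin bone (SD, n = 3 each), a difference of 1.64 that was not called. It averaged 7.72 ± 0.52 in post-lactation, 1.44 below lactation (limma adjusted p = 0.0644, and 0.0312 with the sets). Against the mean of the other groups lactation was 1.54 higher, called without the sets too (limma adjusted p = 0.0254). Its second probe set differed by 1.78 and -1.54 in the same comparisons.

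Car2, carbonic anhydrase II, which makes protons for the pump and is also abundant in red cell precursors, had another pattern. It averaged 12.39 in lactation and 11.46 in virgin bone, 0.93 apart and not called. In post-lactation it averaged 8.70, 3.69 below lactation (limma adjusted p = 0.00046) and 2.76 below virgin bone (limma adjusted p = 0.0129). For Acp5 and Ctsk the same difference from virgin bone was -0.02 and 0.52. Mmp13, a collagenase, averaged 11.64 in post-lactation and 12.99 in lactation, -1.35 (limma adjusted p = 0.545, and 0.0467 with the sets).

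Other papain-family cathepsins and other acid phosphatases were read beside the members. Ctss, cathepsin S, the close relative of cathepsin K known from antigen-presenting cells, read 9.85, 10.23 and 9.48 in lactation 1 to 3, against 10.77, 10.24 and 9.88 in virgin 1 to 3. The groups overlapped, with the lactation mean 0.44 lower and not called. Over 13 papain-family cathepsins, lactation means were higher for 6 and lower for 7, with a median difference of -0.01. Ctsb, cathepsin B, was 0.36 lower in post-lactation than in lactation and was called only with the sets (limma adjusted p = 0.0467). Its other probe sets differed by -0.56, -0.15, -0.04 and, the other way, 0.55. In the last of these lactation 3 read 5.20, against 6.91 and 6.89 in lactation 1 and 2. Acp2, the lysosomal acid phosphatase, averaged 6.40 in lactation and 6.47 in virgin bone. Acp1, a cytosolic phosphatase of another fold, averaged 9.05 in post-lactation and 10.14 in lactation, -1.09 (limma adjusted p = 0.169, and 0.00429 with the sets). The difference between these enzymes and Acp5 or Ctsk was not tested.

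**Figure D3:**
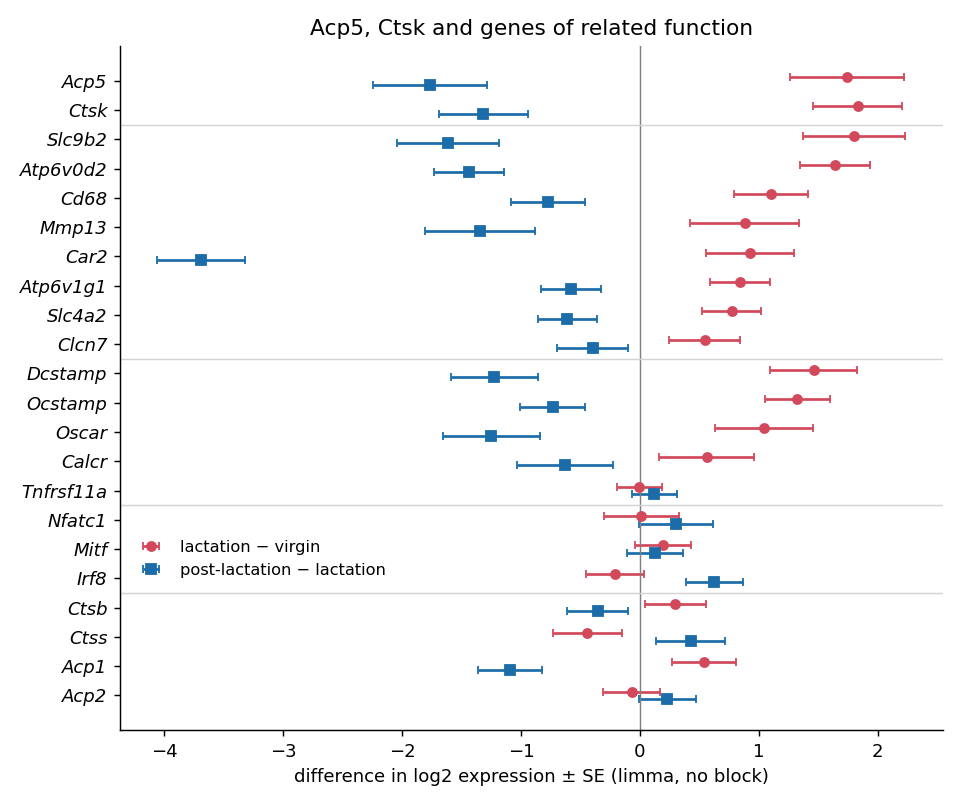
Differences in log2 expression ± SE from limma without the sets (horizontal axis). From top to bottom are Acp5, Ctsk, resorption machinery, osteoclast identity genes, regulators, and other cathepsins and acid phosphatases. The genes drawn were chosen from these lists and are not the whole of them. Resorption genes drawn were all higher in lactation and lower after weaning, but of all 26, 4 were lower in lactation and 5 higher after weaning. Of 18 identity genes, 8 were higher after weaning. Red circles are lactation minus virgin and blue squares are post-lactation minus lactation. Slc9b2 and Atp6v0d2 lie next to the members at 1.80 and 1.64 in lactation, and Car2 is farthest left at -3.69 after weaning.

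Osteoclast identity genes were read next, since osteoclasts, where present, carry both members' RNA. Of 18 measured genes, 15 had higher means in lactation than in virgin bone, with a median difference of 0.54. Dcstamp alone was called, only with the sets, where 0.022% of all genes were. Between post-lactation and lactation the list was split, with 8 means higher and 10 lower and a median difference of -0.10. The 3 called there, lower and only with the sets, were Dcstamp, Oscar and Atp6v0d2, where 2.99% of all genes were called lower. Among the genes with higher post-lactation means were Tyrobp, a signalling adaptor of myeloid cells, by 0.46 and Nrp2, a semaphorin receptor, by 0.10, neither called. Dcstamp, a membrane protein that preosteoclasts need to fuse, read 7.02, 8.02 and 7.22 in lactation 1 to 3, against 5.73, 6.43 and 5.70 in virgin 1 to 3. The groups did not overlap, and the difference was 1.46 (limma adjusted p = 0.043 with the sets). In post-lactation 1 to 3 it read 6.09, 5.61 and 6.88, 1.22 below lactation on average (limma adjusted p = 0.36, and 0.00363 with the sets).

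Ocstamp, a second fusion gene, averaged 6.30 in lactation and 4.97 in virgin bone, 1.33 apart, and 5.56 in post-lactation. It was called only against the mean of the other groups, with the sets (limma adjusted p = 0.0193). Oscar, an osteoclast receptor for collagen, averaged 4.95 in post-lactation and 6.19 in lactation, -1.25, called with the sets (limma adjusted p = 0.018). Calcr, the calcitonin receptor of mature osteoclasts, was dim in every group, at 3.39 in virgin, 3.95 in lactation and 3.32 in post-lactation, under the 40th percentile of gene means, 4.87. Tnfrsf11a, the receptor for RANKL, averaged 4.80 in lactation and 4.81 in virgin bone, both also under 4.87, and 4.92 in post-lactation. Its other probe set was dim in every group.

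The mean level of the 18 identity genes, as log2 above the array median, ranged from 2.33 to 2.51 over virgin, 2.86 to 3.00 over lactation and 2.54 to 2.76 over post-lactation arrays. The log2 of their summed signal ranged from 8.09 to 8.39, 8.45 to 8.61 and 8.51 to 8.55 in the same groups. By mean level lactation lay above both other groups with no overlap, while by summed signal lactation and post-lactation overlapped. The part of osteoclast markers in the differences of Acp5 and Ctsk was not tested. In whole-tissue RNA, fewer cells of a type and less RNA per cell cannot be told apart.

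Other cell types were read from their own lists. The macrophage list of 15 genes ranged from 2.17 to 2.45 above the array median in virgin, 2.28 to 2.66 in lactation and 2.26 to 2.66 in post-lactation, with a median difference of 0.05 between lactation and virgin bone. Cd68, which macrophages and osteoclasts both carry, averaged 9.43 in lactation and 8.33 in virgin bone, 1.10 apart and not called (limma adjusted p = 0.108 with the sets). The osteocyte list ranged from 3.30 to 5.32 in virgin, 4.60 to 4.86 in lactation and 4.49 to 5.17 in post-lactation, and virgin 1 had the lowest value. Its median difference between lactation and virgin bone was 1.35 in set 1, which holds virgin 1, -0.21 in set 2 and -0.48 in set 3. Both members were higher in lactation in all 3 sets. The part of osteocytes and macrophages in the differences of Acp5 and Ctsk was not tested.

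The osteoblast and bone matrix list, with 9 of 16 genes measured, ranged from 5.75 to 6.19 in virgin, 6.42 to 6.56 in lactation and 6.09 to 6.49 in post-lactation. All 9 means were higher in lactation than in virgin bone, with a median difference of 0.37, none called, and the list's arrays did not overlap between those groups. Between post-lactation and lactation 3 means were higher and 6 lower, with a median of -0.15. The part of osteoblasts in the differences of Acp5 and Ctsk was not tested.

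The B lymphocyte list ranged from 1.06 to 2.61 in virgin and 1.88 to 2.495 in lactation, against 2.89 to 3.58 in post-lactation. All 14 measured means were higher in post-lactation than in lactation, with a median difference of 1.17. Dntt and Vpreb1, genes of B cell precursors, were called higher, only with the sets, where 0.539% of all genes were. The erythroid list ranged from 2.70 to 3.67 in virgin and 4.002 to 4.44 in lactation, against 0.04 to 0.68 in post-lactation. Slc4a1, the red cell anion exchanger, fell by 5.47 after weaning (limma adjusted p = 7.52e-05), and 13 of 15 erythroid genes were called lower without the sets, against 0.693% of all genes. The neutrophil list was high on every array, at 7.30 to 8.33. The part of lymphocytes and other blood cells in the differences of Acp5 and Ctsk was not tested.

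**Figure D4:**
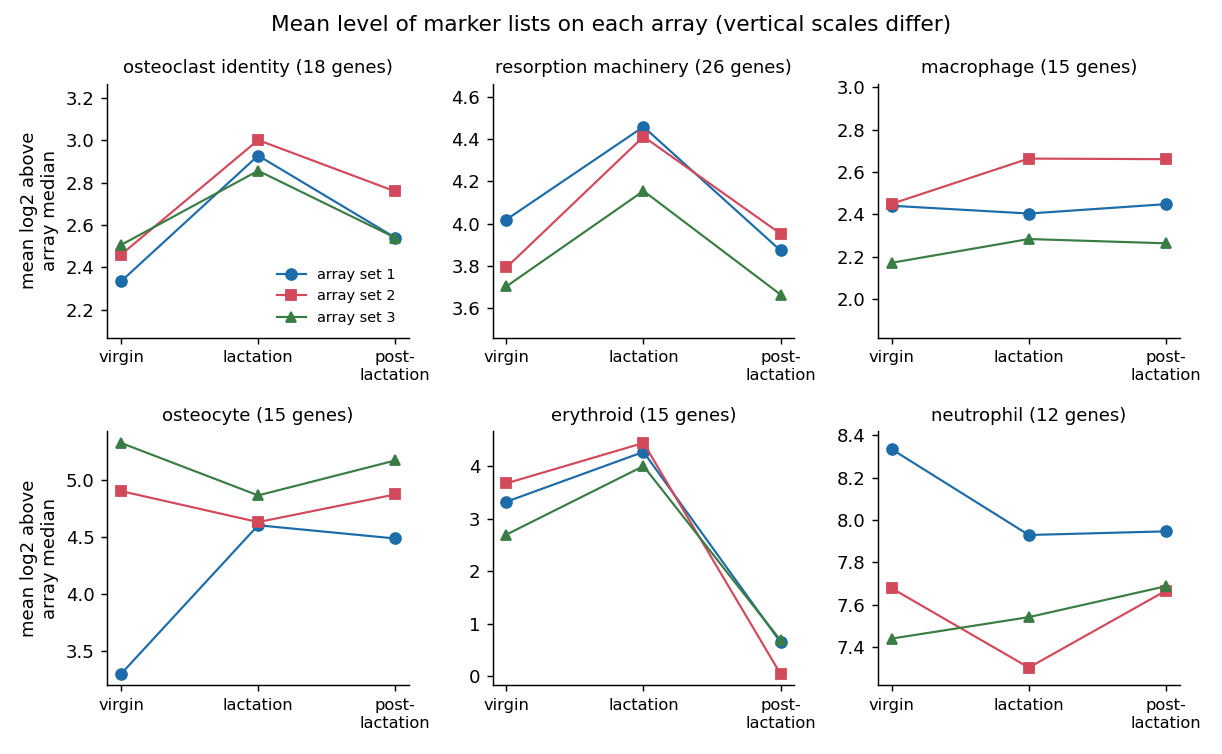
Mean log2 level above the array median (vertical axes, scales differ) of 6 marker lists on each array, with lines joining the arrays of a set. Osteoclast identity genes run at 2.86 to 3.00 in lactation, above all other arrays, while macrophage genes overlap between groups, erythroid genes are at 0.04 to 0.68 in post-lactation, and the osteocyte list of virgin 1 is at 3.30.

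Transcription factors known to act on these genes were read at the RNA level. Of 19 measured regulators, 6 had higher and 13 lower means in lactation than in virgin bone, with a median difference of -0.06, and none was called in that comparison. Irf8, which restrains osteoclast formation, was 0.63 higher in post-lactation than in lactation, called only with the sets (limma adjusted p = 0.0294). Mitf, which binds M-boxes, differed by 0.20 between lactation and virgin bone and was not called.

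Nfatc1, the main driver of osteoclast genes, depended on the probe set. The brightest, used in the fits, averaged 7.82 in lactation and 7.81 in virgin bone. Another, 1425761_a_at, read 8.26, 8.64 and 7.27 in lactation 1 to 3, against 5.73, 6.70 and 6.35 in virgin 1 to 3, 1.80 apart with no overlap. That probe set read 8.31, 7.09 and 6.95 in post-lactation 1 to 3, overlapping lactation. The remaining 3 Nfatc1 probe sets differed by -0.69, -0.05 and 0.11 between lactation and virgin bone. The disagreement was seen after the values were known, and which transcripts each probe set reads was not analysed here.

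Of the hormones and receptors of lactation and calcium balance, 13 of 14 listed genes were measured and 7 were above the dim level in some group. Vdr, the vitamin D receptor, averaged 7.41 in post-lactation and 8.40 in lactation, -0.99 (limma adjusted p = 0.195, and 0.037 with the sets). Pth1r, the receptor of parathyroid hormone and its related peptide, read 8.22, 8.42 and 8.68 in lactation 1 to 3, against 6.93, 8.37 and 8.57 in virgin 1 to 3, overlapping. No member of this list was called between lactation and virgin bone.

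The genes most like each member were ranked by Pearson's r over the 9 arrays, on values centred within each set, among 11171 genes whose highest group mean exceeded 4.87. The r values are descriptions, since the arrays share 3 groups and the sets. Acp5 and Ctsk correlated at 0.95, which placed Ctsk 42nd for Acp5 and Acp5 29th for Ctsk, and at 0.91 on values not centred. Nearest to Acp5 were Slc9b2 (0.99), Cyc1, a subunit of respiratory complex III (0.98), Tceal8 (0.98), BC031181 (0.98) and Atp6v0d2 (0.98). Nearest to Ctsk were Natd1 (0.99), Atp6v1g1, a V-ATPase subunit of the cytosolic sector (0.99), Tmem65 (0.98), Atp6v0d2 (0.98) and Dcstamp (0.98).

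The likeness was of shape, and for most of these genes not of size. Lactation minus virgin was 0.38 for Cyc1, 0.48 for Tceal8, 0.27 for BC031181, 0.47 for Natd1, 0.61 for Tmem65 and 0.84 for Atp6v1g1. Those differences were smaller than the 1.46 to 1.80 of Dcstamp, Atp6v0d2 and Slc9b2, and a second, dimmer Tmem65 probe set differed by 0.13. Ctss correlated at -0.65 with Acp5 and at -0.64 with Ctsk, ranks 9966 and 10294 of 11171, so other genes were more negative. On values not centred it was at -0.36 and -0.42.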

How the data were processed

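RNA from 9 tibial shaft preparations, 3 virgin, 3 lactation and 3 post-lactation, was measured on Affymetrix M430 arrays. The deposited values are log2, and per the submitters' processing notes RMA made them. GenePattern and Bioconductor are the authors' tools in the series design text, with versions and annotation not given in the sources used here. Values ran from 1.55 to 14.9 with none missing, and no log was taken again.

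Probe sets were named from the platform annotation: 34958 had 1 gene, 932 several and 9211 none. Each of 18194 genes took its probe set of highest mean over 9 arrays, a choice open for 9012 genes. Groups were compared with limma 3.58.1 in R 4.3.3 (lmFit and eBayes, no trend, 6 residual degrees of freedom, or 4 with the array set as a block), with Benjamini-Hochberg adjustment. RMA arrays processed together share exactly equal values: 36.1% to 44.1% of probe sets in any pair within sets 2 and 3, 2.50% to 2.72% within set 1, and at most 2 probe sets between sets. The fits were tested on simulated data with simpler spread and set shifts than these arrays, which checks the code and not the power here.

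The members and lists were chosen with earlier results of these data known. Named were the members, the 5 genes most like each, called list genes or else up to 4 bright ones per list, Ctss, Acp2, Dcstamp, Ocstamp, Oscar, Calcr and Nfatc1. Pth1r, Mitf and Tnfrsf11a were named for their roles after their values were seen. Of the list genes, those without a probe set of their own were left out. Alternatives were other blocks, scalings, filters, probe set rules and leaving out arrays.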

Additional observations from a re-analysis of the deposited data

How the results depend on the processing

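Acp5 and Ctsk kept the sign of their differences for lactation against virgin, post-lactation against lactation and lactation against the mean of the other groups under every alternative run, and no alternative called either member in lactation against virgin. With the array set as a block, post-lactation minus lactation was called for Acp5 at -1.76 (adjusted p = 0.0119) and Ctsk at -1.32 (0.0297), and lactation against the mean of the others for Acp5 at 1.75 (0.00986) and Ctsk at 1.57 (0.0122). Fitted over all probe sets, a setting chosen after seeing the data, limma's blocked adjusted p for the same differences was 0.0190, 0.0465, 0.0168 and 0.0209. The blocked fits that left out 1 array or 1 set were likewise added after the data were seen. Ctsk in lactation against the mean of the others was also called at 1.57 with the replicate number as a block (limma adjusted p = 0.0414), at 1.58 after centring array medians and at 1.61 after quantile normalization. The replicate numbers do not follow the sets. Deviations from group means correlated at 0.47 to 0.73 within sets and at -0.47 to -0.13 for the 18 pairs in different sets. The 7 pairs sharing a number across sets, at -0.41 to -0.17, lay inside that range. Deviations cancel within a group, so these negative values are no separate test of pairing by number.

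Called genes for lactation against virgin numbered 0, or 4 with the set block and 1 after median centring or quantile normalization. For post-lactation against lactation there were 129, or 642 with the set block, 205 after quantile normalization and 762 with the set block over all probe sets. For post-lactation against virgin there were 32, or 82 with the set block and 52 with it over all probe sets. For lactation against the mean of the others there were 86, or 434 with the set block, 137 after median centring or quantile normalization, 57 with the mean over probe sets and 505 with the set block over all probe sets.

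Leaving out 1 array or set, with and without the block, gave Acp5 differences of 1.41 to 2.06 for lactation against virgin, -2.32 to -1.43 for post-lactation against lactation, -0.58 to 0.32 for post-lactation against virgin, where the sign turned, and 1.42 to 2.07 for lactation against the others. Ctsk gave 1.52 to 2.13, -1.67 to -1.05, 0.16 to 0.83 and 1.31 to 1.75 in the same order. The counts of called genes ran from 0 to 0, 0 to 927, 0 to 42 and 0 to 548. Acp5 minus Ctsk ran from -0.37 to 0.14 for lactation against virgin, where the sign turned, -0.68 to -0.23 for post-lactation against lactation and -0.82 to -0.32 for post-lactation against virgin. The causes were not tested. Acp5 minus Ctsk was not refitted with other filters or trends, which leave it as it is, and the contrast with the mean of the others needs all 3 groups. Both members lie far above the dim level of 4.87 on each of the 9 arrays.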
